A study of Mus musculus with 12 samples.

Results

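The genes for 4 antimicrobial proteins of mucosal surfaces and neutrophils were followed: lactoferrin (Ltf), calprotectin with its subunit genes S100a8 and S100a9, lipocalin-2 (Lcn2) and the secretory leukocyte protease inhibitor (Slpi). These 5 genes were found by symbol among the 19049 genes of the count table, and all 5 were listed and passed the filter on low counts. They were picked from an earlier reading of these same 12 libraries, so their own levels and differences are given as a description, with no test. Ltf, S100a8 and S100a9 passed the filter through the tumour libraries, since no normal adult or P14 library held more than 14, 10 and 21 of their reads.

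The libraries are bulk RNA-seq of colonic stromal cells of C57BL/6J mice, 4 mice in each of 3 groups. The normal adult mice were 8 weeks old, the P14 mice were at postnatal day 14 (2 weeks), and the tumour mice carried colonic tumours raised with AOM/DSS. AOM is azoxymethane, a carcinogen, and DSS is dextran sodium sulfate, which injures the colonic lining. The tumour mice were 12, 13, 14 and 14 weeks old in replicates 1 to 4, older than the normal adults. In every group, DAPI-negative cells were sorted for the absence of 4 surface proteins: the epithelial EPCAM, the endothelial CD31, the leukocyte CD45 and the erythroid TER119. The sort selects by what cells lack, so any cell without these 4 surface proteins could be in it. Age and tumour cannot be told apart between these groups.

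Lactoferrin and lipocalin-2 starve bacteria of iron: lactoferrin binds the metal itself, and lipocalin-2 binds the siderophores with which bacteria collect it. Calprotectin, the S100a8 and S100a9 heterodimer, withholds zinc and manganese, is abundant in the cytosol of neutrophils and is measured in stool as a marker of gut inflammation. Slpi, a small protein of the WFDC family, inhibits neutrophil elastase and protects mucosal surfaces. Neutrophils store lactoferrin and lipocalin-2 in granules, and stressed or glandular epithelia make several of the 5 as well.

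The sequences around the starts of Ltf, S100a8 and S100a9 are shown because the tumour levels of Ltf and of the calprotectin pair went apart between libraries. Each is the RefSeq promoter on GRCm38.p6, read 5′ to 3′ on the gene's own strand, from 250 bases before to 50 bases after the start. Capitals mark matches to 4 short motifs searched on both strands. The C/EBP-like motif was TTGCNNAA. The AP-1-like motif was TGANTCA. The TATA box was searched as TATAAA. The kappa-B-like motif was GGGA, any 4 bases and then CC. No match of 1 motif overlapped a match of another. The Ltf window is chr9:111019042-111019341 on the plus strand, the S100a8 window chr3:90668821-90669120 on the plus strand, and the S100a9 window chr3:90695672-90695971 on the minus strand.
Ltf: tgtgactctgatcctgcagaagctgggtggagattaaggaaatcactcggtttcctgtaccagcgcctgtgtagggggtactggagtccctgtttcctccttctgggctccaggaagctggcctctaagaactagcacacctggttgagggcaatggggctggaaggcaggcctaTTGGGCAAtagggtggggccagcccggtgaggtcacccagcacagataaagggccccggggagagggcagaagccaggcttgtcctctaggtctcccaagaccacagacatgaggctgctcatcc
S100a8: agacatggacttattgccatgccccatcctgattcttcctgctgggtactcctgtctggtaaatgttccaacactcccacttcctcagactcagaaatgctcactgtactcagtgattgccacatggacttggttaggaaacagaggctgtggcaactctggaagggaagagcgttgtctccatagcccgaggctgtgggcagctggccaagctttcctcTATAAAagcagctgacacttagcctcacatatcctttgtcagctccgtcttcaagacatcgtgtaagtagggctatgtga
S100a9: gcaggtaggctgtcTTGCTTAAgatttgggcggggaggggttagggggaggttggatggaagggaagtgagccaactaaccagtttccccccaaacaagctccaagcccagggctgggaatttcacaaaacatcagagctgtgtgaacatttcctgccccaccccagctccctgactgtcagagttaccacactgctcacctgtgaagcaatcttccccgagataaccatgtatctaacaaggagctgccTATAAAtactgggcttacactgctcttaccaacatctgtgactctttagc
The C/EBP-like letters were present in 4 of the 5 promoters, those of Ltf, S100a9, Lcn2 and Slpi, against 10.8% of 32851 promoters of the same length. Their first bases lay at -75 in Ltf, -236 in S100a9, -216 in Lcn2 and -241 in Slpi, counted from the RefSeq start. That start lies 32588 bases inside the GENCODE gene for Slpi, and 0 to 513 bases from the GENCODE start for the other 4 genes. TATAAA was present in S100a8 at -30 and in S100a9 at the annotated start, against 13.6% of promoters. Neither the kappa-B-like letters (20.7% of promoters) nor the AP-1-like letters (7.81%) were present in any of the 5 windows. A match is a string of letters and not a shown binding site.

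Total counts ranged from 15449444 to 38799033 per library, and the floor of 3 reads from 0.0773 to 0.194 CPM, the counts of a gene per 1000000 counts of its library. Intervals and floors of this kind cover counting error only. The smallest total was that of tumour replicate 4, where 9.14% of the listed genes were at 0, against 1.4% or less elsewhere. Fibroblast markers were present in all libraries, with summed levels of 35588 to 46957 CPM in normal adult, 85172 to 114197 in P14 and 13932 to 38387 in tumour libraries. Epcam and Ptprc, which encode the EPCAM and CD45 used to deplete cells, were also read, Epcam at 39.0 to 1589 CPM and Ptprc at 1.08 to 33.5 CPM over the 12 libraries. All 4 tumour libraries expressed Xist, whereas the design states both sexes in each group, and 2 normal adult and 2 P14 libraries had Xist under 1 CPM.

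All 5 genes were higher in every tumour library than in any normal adult library, without overlap between the groups. Such separation was seen for 11.0% of the 18727 tested genes, and since earlier results in these libraries chose the 5, nothing is read from the count. Ltf, S100a8 and S100a9 stood at the edge of detection in normal adult stroma and reached 277 to 1349 CPM in single tumours. Lcn2 and Slpi were at about 1 CPM in normal adults and at 7.08 to 21.1 CPM in the tumours. In these bulk libraries, more cells of a type and more RNA per cell cannot be told apart.

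**Figure D1:**
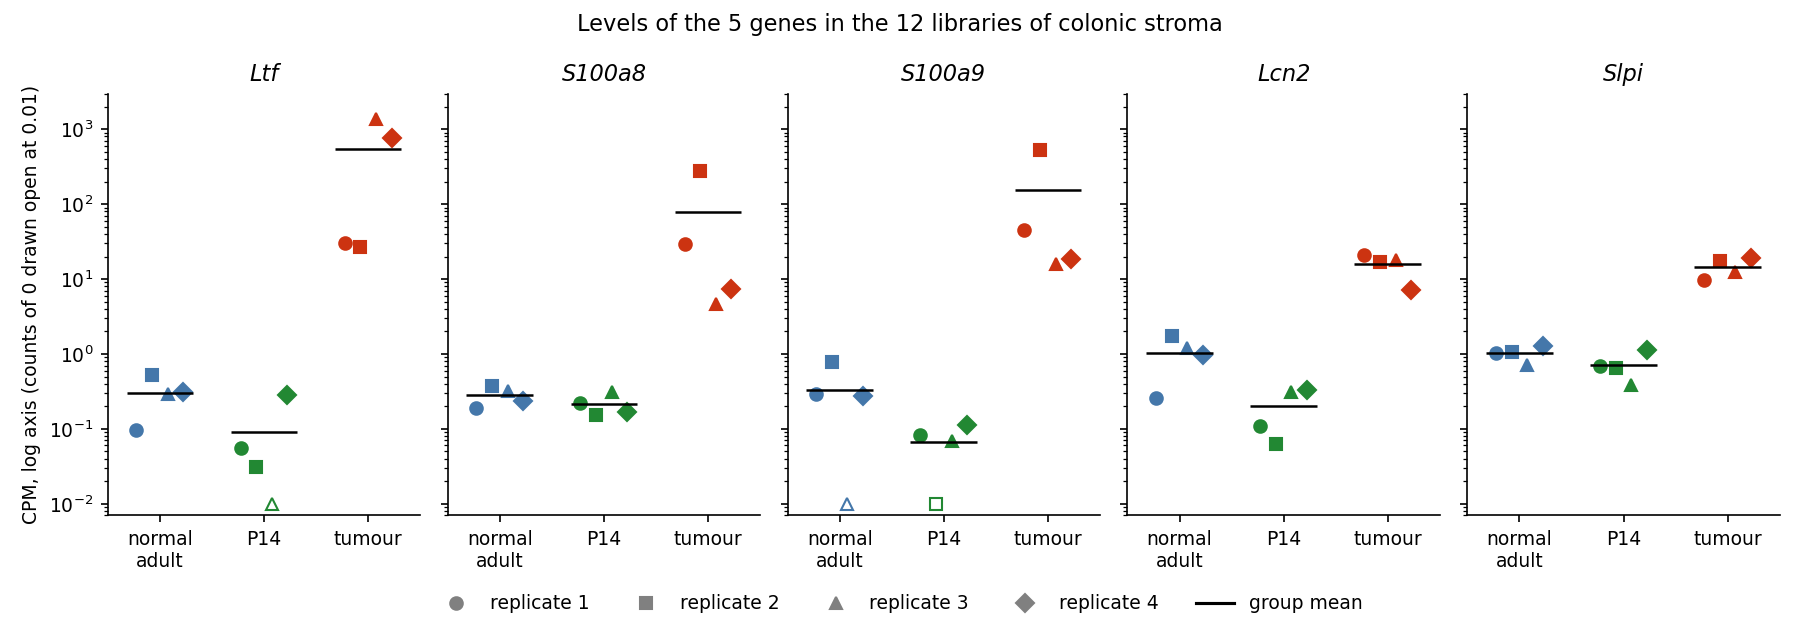
Levels of Ltf, S100a8, S100a9, Lcn2 and Slpi in CPM on a log axis, with 1 point per library, a bar at each group's mean of 4 libraries, and counts of 0 drawn open at 0.01. All tumour points lie above all normal adult and P14 points, and the tumour points spread from 27.0 to 1349 CPM for Ltf but only from 9.76 to 18.9 CPM for Slpi.

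Lactoferrin was the most unequal of the iron-withholding genes. Ltf (ENSMUSG00000032496, GRCm38 chromosome 9, 111019271 to 111042767, plus strand) was at 0.0961, 0.516, 0.288 and 0.307 CPM in normal adult replicates 1 to 4. In the tumour libraries it was at 30.2, 27.0, 1349 and 759.6 CPM in replicates 1 to 4. Tumour replicates 3 and 4 were thus high and replicates 1 and 2 low, and even the lowest tumour level was 52.2 times the highest normal adult level. The P14 levels were 0.055, 0.031, 0 and 0.279 CPM, from 2, 1, 0 and 10 reads. The group means were 541 ± 639 CPM in tumours, 0.302 ± 0.172 in normal adults and 0.0913 ± 0.127 at P14 (SD, n = 4 each). The fitted log2 difference of tumour against normal adult was 10.81 ± 1.49 (SE), and it was 9.82 without tumour replicate 3. Per kilobase of exon, Ltf ranked 66 among the 19049 genes in tumour replicate 3 and 216 in replicate 4, but 5010 and 5539 in replicates 1 and 2.

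Lipocalin-2, the siderophore-binding protein, varied less. Lcn2 (ENSMUSG00000026822, chromosome 2, 32384633 to 32388252, minus strand) was at 0.256, 1.73, 1.19 and 0.954 CPM in normal adult replicates 1 to 4. The tumour levels were 21.1, 16.8, 17.9 and 7.08 CPM. Tumour replicate 4, which was among the highest for Ltf, was the lowest for Lcn2, at 4.08 times the highest normal adult library. At P14 the levels were 0.110, 0.0619, 0.311 and 0.335 CPM, with the 2 upper values inside the normal adult range. The means were 15.7 ± 6.05 CPM in tumours, 1.03 ± 0.612 in normal adults and 0.204 ± 0.139 at P14 (SD, n = 4 each). The log2 difference of tumour against normal adult was 3.93 ± 0.56 (SE).

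The calprotectin genes were highest in another tumour library than Ltf. S100a8 (ENSMUSG00000056054, chromosome 3, 90668978 to 90670035, plus strand) was at 29.7, 277, 4.71 and 7.43 CPM in tumour replicates 1 to 4. S100a9 (ENSMUSG00000056071, chromosome 3, 90692632 to 90695721, minus strand) was at 44.9, 531, 15.7 and 18.3 CPM in the same libraries. For both subunits replicate 2 was far above the rest, replicate 1 came next, and replicates 3 and 4, the high libraries for Ltf, were the lowest. The normal adult levels were 0.192, 0.369, 0.325 and 0.239 CPM for S100a8, from 6 to 10 reads. Those of S100a9 were 0.288, 0.774, 0 and 0.273 CPM, from 0 to 21 reads. The P14 levels of both genes lay within or below these ranges, at 0.155 to 0.311 CPM for S100a8 and 0 to 0.112 CPM for S100a9.

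For S100a8 the tumour mean was 79.7 ± 132 CPM against 0.281 ± 0.0802 in normal adults and 0.213 ± 0.0710 at P14 (SD, n = 4 each). For S100a9 the means were 153 ± 253, 0.334 ± 0.322 and 0.0658 ± 0.0473 CPM. The log2 differences of tumour against normal adult were 8.14 ± 1.33 for S100a8 and 8.83 ± 1.39 for S100a9 (SE). Tumour replicate 2 set much of their size: without it they were 5.64 and 6.31. Without normal adult replicate 2, which had the most S100a9 reads of its group, the S100a9 difference was 9.61. The 2 subunits kept to each other within each tumour: S100a9 per kilobase was 2.01, 2.55, 4.42 and 3.27 times S100a8 in tumour replicates 1 to 4, a range far narrower than the 58.8-fold and 33.9-fold spans of S100a8 and S100a9 over the same libraries.

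Slpi, the elastase inhibitor, was the most even of the 5. Slpi (ENSMUSG00000017002, chromosome 2, 164354070 to 164389095, minus strand) was at 1.03, 1.07, 0.721 and 1.26 CPM in normal adult replicates 1 to 4. In the tumours it was at 9.76, 17.4, 12.6 and 18.9 CPM, so that the highest tumour was 1.94 times the lowest. The P14 levels of 0.687, 0.650, 0.380 and 1.14 CPM overlapped the normal adult ones. The means were 14.7 ± 4.24, 1.02 ± 0.223 and 0.715 ± 0.317 CPM in tumours, normal adults and P14 (SD, n = 4 each). The log2 difference of tumour against normal adult was 3.84 ± 0.35 (SE).

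The makeup of the 5-gene sum therefore changed from tumour to tumour. Ltf made up 22.3, 3.10, 96.4 and 93.6% of the summed CPM of the 5 genes in tumour replicates 1 to 4. S100a8 and S100a9 together made up 55.0, 93.0, 1.45 and 3.17%. Per kilobase, S100a9 was the highest of the 5 in replicates 1 and 2 and Ltf in replicates 3 and 4. Ltf per kilobase was 0.102 and 0.00767 times S100a9 in replicates 1 and 2, but 13.0 and 6.28 times S100a9 in replicates 3 and 4. From replicate 2 to replicate 3, Ltf was 50.1 times higher, S100a8 was 58.8 times lower, and Lcn2 and Slpi stood at 1.07 and 0.725 of their level. These are single mice, and both Ltf-high libraries came from the 14-week-old mice; the part of age in the difference was not tested. Across all 12 libraries the log2 levels of S100a8 and S100a9 had a Pearson r of 0.986, and those of Ltf had an r of 0.662 with S100a8 and 0.928 with Slpi, all with the tumour libraries as the high points.

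Markers of other cell types differed between the same tumours. Of 25 neutrophil markers, 15 could be analysed. The other 10, among them Camp, Ngp, Mmp8, Elane, Prtn3 and Ctsg, were not found by symbol in the count table, so nothing is known of them here. The summed level of the 15 was 175, 397, 154 and 233 CPM in tumour replicates 1 to 4. It was 72.9 to 120 CPM in normal adults and 42.2 to 53.5 at P14. Tumour replicate 2 was the highest of the 12 libraries for 9 of the 15. That was not particular to neutrophil markers. The same library was the highest for 15 of 27 genes of inflamed fibroblasts, 5 of 9 neutrophil attractants and growth factors and 6 of 17 macrophage and pan-leukocyte markers. It was the highest for 0 of 24 squamous and 0 of 20 colonic epithelial markers. The share of all genes highest in it was not computed. Csf3r, the G-CSF receptor of neutrophils, was at 0.630, 9.56, 0.359 and 0.643 CPM in tumour replicates 1 to 4. Cxcr2, their chemokine receptor, was at 0.135, 7.48, 0.0897 and 0 CPM. Trem1 and Retnlg, named like Fpr1 after their values were seen, reached 22.0 and 14.9 CPM in replicate 2 and no more than 0.315 CPM in any other tumour. In replicate 4, Cxcr2, Fpr1, Retnlg and Trem1 were at 0. That library had the smallest total count, with 9.14% of listed genes at 0 against 1.4% or less elsewhere, which limits the reading of these values. Ly6g, a surface marker of mouse neutrophils, did not follow them: it was at 20.7, 9.31, 21.9 and 15.4 CPM in the tumours and at 10.2 to 18.8 CPM in normal adults. Ptprc was at 3.42, 33.5, 2.33 and 2.79 CPM in the tumours and at 14.8 to 20.2 CPM in normal adults. In tumour replicates 3 and 4 both S100a8, at 4.71 and 7.43 CPM, and the summed neutrophil markers, at 154 and 233 CPM, were above every normal adult library. Between tumours the sum did not keep the order of S100a8. The sum was 233 CPM in replicate 4 and 175 CPM in replicate 1, where S100a8 was at 7.43 and 29.7 CPM. The part of such cells in the S100a8 and S100a9 levels was not tested.

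Squamous epithelial markers were high in all 4 tumours and were unequal in another way. Their summed level over 24 genes was 11310, 8255, 8362 and 21750 CPM in tumour replicates 1 to 4, against 735 to 2003 CPM in normal adults and 223 to 633 at P14. Krt13, a keratin of non-cornified stratified epithelium, was at 133, 71.2, 1016 and 911 CPM in the tumours, the same order of libraries as Ltf. Of the 24 markers, 3 had that order, Krt13, Krt6b and Sprr1a, which are named after their values were seen. Tumour replicate 4 was the highest of the 12 libraries for 17 of the 24 and tumour replicate 3, where Ltf was highest, for 6. Krt6b, a keratin of stressed epidermis, was at 26.3, 12.9, 123 and 56.1 CPM, again in that order. The basal keratin Krt5 was not in that order, at 1760, 993, 777 and 1833 CPM. Colonic epithelial markers summed to 5203, 1976, 7285 and 4310 CPM in the tumours and to 8141 to 17492 CPM in normal adults. The part of epithelial cells in the Ltf level was not tested.

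**Figure D2:**
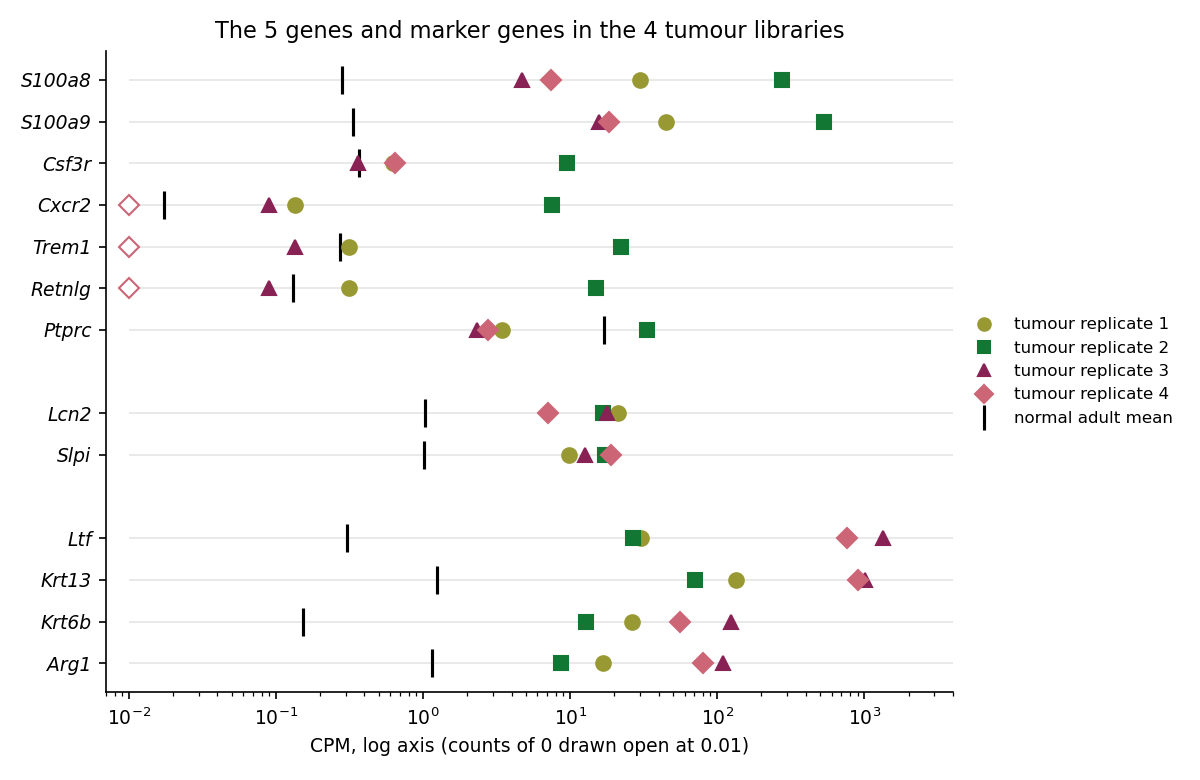
Levels in CPM on a log axis of the 5 genes and of marker genes in the 4 tumour libraries, with 1 symbol per library, the normal adult mean as a vertical bar and counts of 0 drawn open at 0.01. S100a8, S100a9, Csf3r, Cxcr2, Trem1, Retnlg and Ptprc are highest in tumour replicate 2, whereas Ltf, Krt13, Krt6b and Arg1 are highest in replicates 3 and 4. The markers drawn are a selection from their lists, and Trem1, Retnlg, Krt13 and Krt6b were named after their values were seen. Of 24 squamous markers, 3 had the tumour order of Ltf, and tumour replicate 4 was the highest library for 17. Tumour replicate 2 was the highest library for 9 of 15 neutrophil markers. Ly6g and Krt5 are among the markers that did not follow the drawn patterns and are not drawn.

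By a Pearson r over the 12 libraries of log2(CPM + 0.5), in a pool of 13154 genes whose mean reached 5 CPM in some group, Ltf was most like Arg1 (r = 0.99), which encodes arginase 1. Arg1 was at 16.8, 8.63, 109 and 80.4 CPM in tumour replicates 1 to 4 and at 0.852 to 1.55 CPM in normal adults. After it came Wdr72, Tmprss11e, a serine protease of squamous epithelium, and the pseudogenes Rps10-ps1 and Rpl3-ps1, whose reads may belong to near-identical copies. S100a8 was most like S100a9 (r = 0.99), followed by Slc39a14, Ppan, Serpina3i and Smyd5. S100a9 was most like S100a8, then Ppan, Hp, Rrp12 and Heatr1. Lcn2 was most like Ubd (r = 0.99), a ubiquitin-like protein induced by inflammatory cytokines, then Naa25, Rassf10, Nol6 and the class I gene H2-Q7. Slpi was most like Eya2 (r = 0.99), then Il1f9, Trim13, Vsnl1 and Tmprss11a. The tumour libraries were the high points of all these relations. Leaving out 1 tumour library kept 1 to 4 of each gene's 5 nearest genes, with 1 kept for S100a9 without replicate 2 or 3.

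The P14 stroma, like the normal adult one, held little of the 5 transcripts. For each of the 5 genes the P14 and normal adult libraries overlapped, whereas 21.6% of tested genes were higher and 21.7% lower at P14 without overlap. The log2 differences of P14 against normal adult were -1.58 ± 1.81 for Ltf, -0.39 ± 1.48 for S100a8, -2.23 ± 1.89 for S100a9, -2.31 ± 0.61 for Lcn2 and -0.50 ± 0.34 for Slpi (SE). All 5 point down, but for Ltf, S100a8 and S100a9 they rest on 0 to 21 reads per library. The Ltf value was -3.10 without P14 replicate 4, which gave 10 reads where the other P14 libraries gave 0 to 2. The S100a9 value was -1.45 without normal adult replicate 2.

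Tumour against P14 uses the same tumour libraries, so it is no second line of evidence for their levels. The tumour libraries lay above all P14 libraries for 5 of 5 genes, against 14.8% of tested genes, and the choice of the 5 again bars any reading of that count. The log2 differences were 12.39 ± 1.62 for Ltf, 8.53 ± 1.35 for S100a8, 11.06 ± 1.59 for S100a9, 6.25 ± 0.65 for Lcn2 and 4.34 ± 0.36 for Slpi (SE). Over the 3 groups each gene was highest in tumours, with normal adult and P14 levels below it and not separated from each other. Without tumour replicate 2 the S100a8 and S100a9 differences were 6.00 and 8.51, and the Ltf difference was 11.40 without tumour replicate 3 and 13.91 without P14 replicate 4.

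Genes related to the 5 were then examined in lists that leave the 5 out, with edgeR's quasi-likelihood test and Benjamini-Hochberg adjustment over all 18727 tested genes. A gene was called at an adjusted p under 0.05. The p-values set a group difference against a spread between mice that was estimated over all 3 groups. In tumours against normal adults, 18.9% of tested genes were called, 10.6% higher and 8.29% lower. Of 28 other secreted antimicrobial and acute-phase proteins, 13 were called higher, 2 lower and 13 not, with a median log2 difference of 1.24, against 0.0008 over all tested genes. Leaving out 1 library gave 10 to 13 called higher.

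Haptoglobin and serum amyloid A3, both acute-phase proteins, had the largest rises of that list. Hp, which binds free haemoglobin, was at 205, 603, 75.3 and 223 CPM in tumour replicates 1 to 4 and at 0.360 to 1.60 CPM in normal adults. It rose by 8.15 ± 0.74 on the log2 scale (SE, adjusted p = 3.94e-05), and by 7.44 without tumour replicate 2. Saa3, which inflamed stroma and macrophages secrete, was at 171, 656, 94.0 and 459 CPM in the tumours and at 0.833 to 1.87 CPM in normal adults. It rose by 8.00 ± 0.64 (adjusted p = 1.88e-05). Nos2, the inducible nitric oxide synthase, rose by 5.09 ± 0.85 (adjusted p = 0.00166), and by 4.28 without tumour replicate 3. Hp and Saa3, like S100a8 and S100a9, were highest in tumour replicate 2 and lowest in replicate 3.

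The other S100 genes had smaller differences than S100a8 and S100a9. Of 12 other S100 genes, 4 were called higher (33.3%), 2 lower (16.7%) and 6 not in tumours against normal adults. The median log2 difference was -0.14, and of all tested genes 10.6% were called higher and 8.29% lower. The 4 were S100a14, S100a4, S100a3 and S100a16, with log2 rises of 1.66 ± 0.45, 1.87 ± 0.55, 1.44 ± 0.46 and 0.70 ± 0.22 (SE). Their adjusted p-values were 0.0218, 0.0315, 0.047 and 0.0406 by edgeR, all near the threshold. None of the 4 was called without normal adult replicate 4 or without tumour replicate 4, 1 was without normal adult replicate 1 or 3 or tumour replicate 2, 2 were without normal adult replicate 2, and 3 without tumour replicate 1 or 3. Both limma voom and a fit of these 2 groups alone called 2. S100a14 was at 246, 251, 245 and 524 CPM in the tumours against 53.2 to 163 CPM in normal adults. S100g, the calcium-binding protein calbindin-D9k of absorptive epithelium, fell by 4.25 ± 0.68 (adjusted p = 0.00127), and the log2 difference was -4.85 without tumour replicate 3. S100a1 was called lower at -0.69 ± 0.23 (adjusted p = 0.0493), a call that 6 of the 8 left-out libraries ended.

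**Figure D3:**
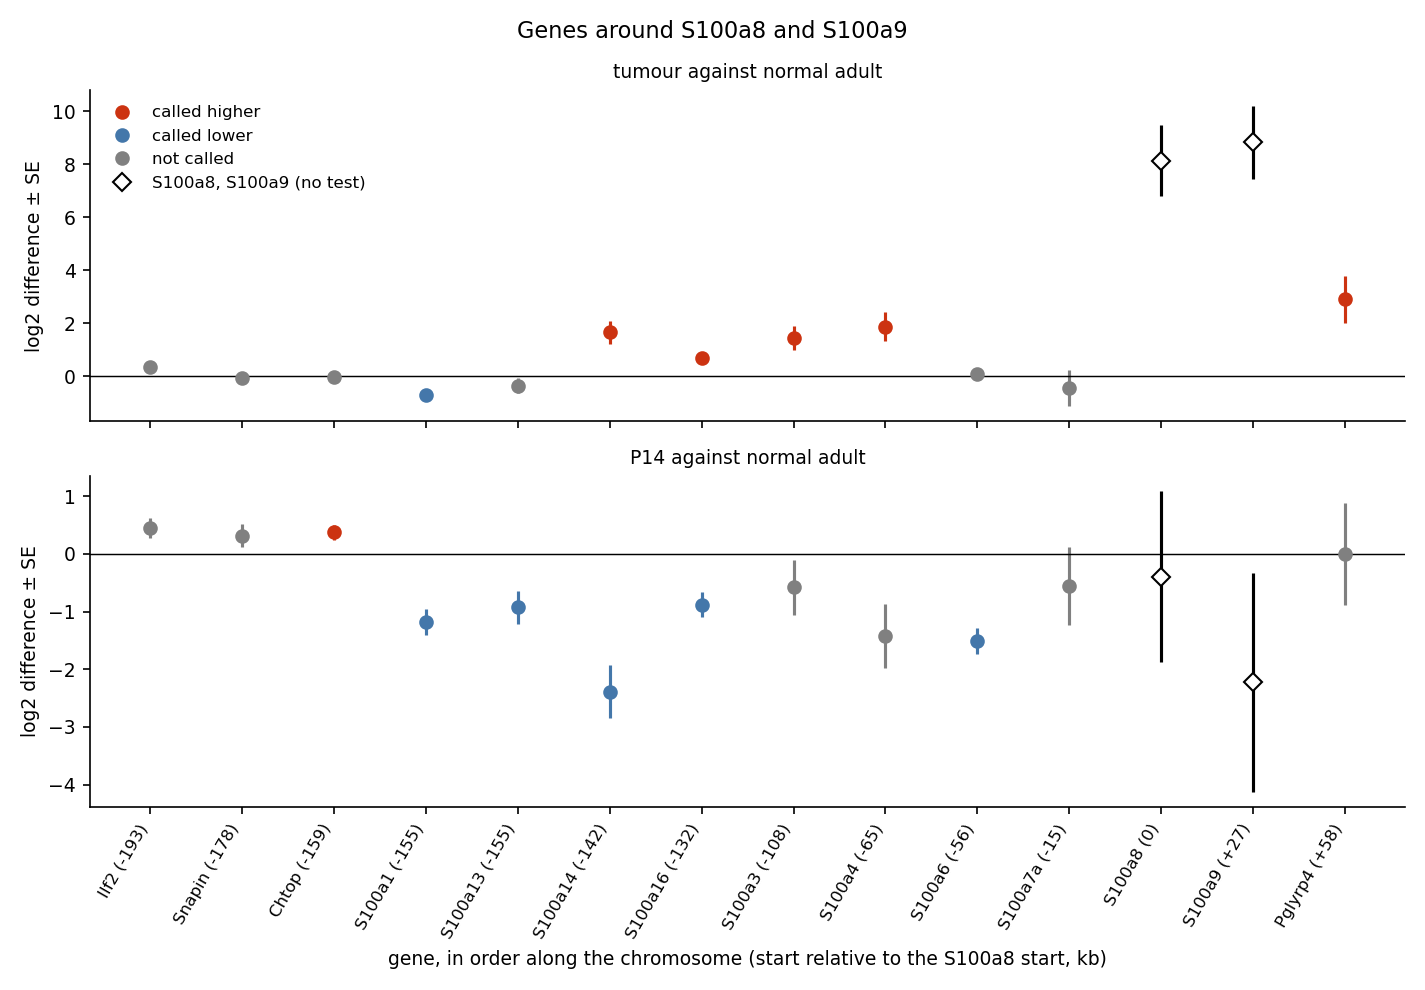
Log2 differences with their SE of the tested protein-coding genes within 200 kb of the S100a8 start, in order along chromosome 3, for tumour against normal adult and for P14 against normal adult. S100a8 and S100a9, drawn as open diamonds with no test, stand at 8.14 and 8.83 in tumours, whereas the neighbour with the largest difference, Pglyrp4, stands at 2.91.

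S100a8 and S100a9 lie in the S100 gene cluster, with starts 26743 bases apart and on opposite strands. Over all tested genes, 10.6% were called higher and 8.29% lower in tumours against normal adults. Within 200 kb of the S100a8 start, 12 other protein-coding genes were tested, and 5 were called higher, 1 lower and 6 not in tumours. Besides the 4 S100 genes above, the fifth was Pglyrp4, which encodes a bactericidal peptidoglycan recognition protein. It rose by 2.91 ± 0.88 (SE, edgeR adjusted p = 0.0366), a call that 5 of the 8 left-out libraries ended, and by 3.54 without normal adult replicate 3. S100a7a, the nearest tested neighbour at 14961 bases, had a log2 difference of -0.44 ± 0.68 and S100a6 of 0.08 ± 0.22, neither called. Around Ltf none of 4 tested neighbours was called. Around Lcn2 1 of 13 was called, St6galnac4, a sialyltransferase gene that fell by 0.95 ± 0.20 (adjusted p = 0.00671). Distances here are from GENCODE starts. Around Slpi 2 of 7 were called, Rbpjl at 1.11 (adjusted p = 0.0352) and Matn4 at 1.01 (adjusted p = 0.043). Leaving out any of normal adult replicates 1 to 3 or of tumour replicates 1 and 3 ended both, and leaving out tumour replicate 2 also ended that of Matn4. From the RefSeq start of Slpi, the same 2 genes were called among 6. Wfdc2, a WFDC gene within 200 kb of the GENCODE start, was at 57.1, 120, 85.5 and 53.7 CPM in normal adults and at 34.7, 134, 118 and 79.0 CPM in tumours, with overlapping groups.

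Among 7 WFDC genes other than Slpi, 1 was called higher (14.3%) and 1 lower (14.3%) in tumours, against 10.6% and 8.29% of all tested genes. Wfdc18 was at 31.6, 7.62, 27.5 and 4.22 CPM in the tumours and 0.886 to 2.58 CPM in normal adults, and rose by 3.38 ± 0.64 (SE, edgeR adjusted p = 0.00343). Wfdc1, a prostate stromal protein, fell by 1.49 ± 0.16 (adjusted p = 0.000141). Of the neutrophil serine proteases, Elane, Prtn3 and Ctsg were not analysed here. Of 5 tested protease inhibitors, 3 were called higher and 1 lower. Serpina3n, an acute-phase inhibitor from a cluster of close copies, was at 1001, 1151, 192 and 232 CPM in the tumours and rose by 2.78 ± 0.55 (adjusted p = 0.00425). Serpina3g of the same cluster rose by 3.62 ± 0.47 (adjusted p = 0.000378), and by 2.99 without tumour replicate 2; reads of such copies may be split. Serpine2, which inhibits thrombin, rose by 1.46 ± 0.22 (adjusted p = 0.000939).

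Receptors for the 5 proteins did not move one way. Of 13 tested, 3 were called higher (23.1%), 3 lower (23.1%) and 7 not, against 10.6% higher and 8.29% lower of all tested genes. The median log2 difference was 0.01, and 5 were called lower without tumour replicate 2. Emb, or embigin, counted in this list as a receptor, was at 34.5, 161, 11.7 and 35.4 CPM in the tumours and 2.82 to 14.5 CPM in normal adults. It rose by 2.88 ± 0.73 (SE, edgeR adjusted p = 0.0166), and by 1.74 without tumour replicate 2. Ager, the receptor RAGE for S100 proteins, rose by 1.11 ± 0.26 (adjusted p = 0.0102). Cd36, a scavenger receptor, fell by 2.59 ± 0.67 (adjusted p = 0.0175), and the log2 difference was -3.23 without tumour replicate 2. Slc22a17, a receptor for lipocalin-2, was at 11.7, 10.4, 6.91 and 7.65 CPM in the tumours and 6.53 to 10.2 CPM in normal adults.

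The metal-handling genes had calls in both directions. Of 18 iron genes, 3 were called higher (16.7%) and 2 lower (11.1%), with a median log2 difference of -0.03. These shares lay near those of all tested genes, 10.6% higher and 8.29% lower. Slc40a1, or ferroportin, the exporter of iron from cells, was at 56.3, 21.0, 31.6 and 26.4 CPM in the tumours and 108 to 192 CPM in normal adults. It fell by 2.14 ± 0.29 (SE, edgeR adjusted p = 0.00052). Cp, the ferroxidase ceruloplasmin, rose by 2.08 ± 0.30 (adjusted p = 0.000652), and Steap4, a metal reductase, by 2.63 ± 0.39 (adjusted p = 0.000849), or 1.95 without tumour replicate 2. Of 13 zinc and copper genes, 3 were called higher (23.1%) and 3 lower (23.1%), and 1 was called lower without normal adult replicate 3. Among them Slc30a2, a zinc exporter, rose by 4.60 ± 0.91 (adjusted p = 0.00458), and by 3.50 without tumour replicate 3.

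Most attractants of neutrophils and some regulators of inflammation rose in tumours. Of 9 tested neutrophil chemoattractants and growth factors, 7 were called higher and none lower, with a median log2 difference of 2.68, and 6 or 7 were called with 1 library left out. Cxcl5 was at 57.0, 223, 108 and 92.3 CPM in the tumours and 1.51 to 5.44 CPM in normal adults, and rose by 5.16 ± 0.56 (SE, edgeR adjusted p = 0.000133). Csf3, which encodes G-CSF, was at 4.09, 19.3, 7.09 and 6.08 CPM in the tumours and at most 0.647 CPM in normal adults, and rose by 4.26 ± 0.57 (adjusted p = 0.000442), or 3.60 without tumour replicate 2. Ppbp, at 65.6 CPM in tumour replicate 3 and 1.66 to 5.29 CPM in the other tumours, rose by 7.69 ± 1.35 (adjusted p = 0.00219), or 5.14 without that library. Of 30 regulators of the acute-phase and IL-17 response, 9 were called higher and none lower, with a median of 0.75. They included Il1a, at 3.01 ± 0.41 (adjusted p = 0.00047), Lif at 2.07 ± 0.38 (adjusted p = 0.00283), and Tnfaip3, a feedback inhibitor of NF-kappaB, at 1.62 ± 0.32 (adjusted p = 0.00425). Without tumour replicate 2, 2 of the 30 were called lower.

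The marker lists of other cell types gave calls as well, beside 10.6% of all tested genes called higher and 8.29% lower. Of 11 tested neutrophil markers, 3 were called higher, Mmp9, Il1r2 and Asprv1, with a median of 2.15 for the list. The other 4 analysed markers, Cxcr2, Fpr1, Retnlg and Trem1, were removed by the filter on low counts, and with no filter 6 of 15 were called higher. Mmp9 encodes gelatinase B, Il1r2 a decoy receptor for interleukin-1, and Asprv1 a protease also known from skin. Mmp9 rose by 4.06 ± 0.42 (SE, edgeR adjusted p = 0.000105), Il1r2 by 3.10 ± 0.51 (adjusted p = 0.00147) and Asprv1 by 4.24 ± 0.73 (adjusted p = 0.00195), or 3.20 without tumour replicate 4. Csf3r was not called at 2.95 ± 1.00 (adjusted p = 0.0575), and was at 0.58 without tumour replicate 2. Leaving out tumour replicate 1, 3 or 4 instead gave 5, 6 and 6 calls in the list, Csf3r among them each time. Of 17 macrophage and pan-leukocyte markers none was called higher and 6 lower, and 11 lower without tumour replicate 2. Adgre1, the macrophage marker F4/80, fell by 3.50 ± 0.59 (adjusted p = 0.00171), and the log2 difference was -4.23 without that library. Ptprc was not called at -0.68 ± 0.74 (adjusted p = 0.566), and was called lower at -2.56 without that library. Of 24 squamous markers, 20 were called higher and 1 lower, and 17 to 22 higher with 1 library left out. Krt13 rose by 8.74 ± 1.03 (adjusted p = 0.000202), Krt6a by 8.20 ± 0.96 (adjusted p = 0.000196), Krt6b by 8.48 ± 0.88 (adjusted p = 0.000107), or 7.69 without tumour replicate 3, and Krt5 by 4.90 ± 0.84 (adjusted p = 0.00188). Of 20 colonic epithelial markers none was called higher and 6 lower (10 by DESeq2), of 10 markers of mucosal glands none higher and 1 lower, and of 9 endothelial markers none higher and 3 lower (8 by DESeq2). Of 13 fibroblast markers 2 were called higher and 2 lower. The lower count was 5 without tumour replicate 2 and 0 without any of the other 7 libraries. Of 27 genes of inflamed fibroblasts, 13 were called higher and 2 lower, and 5 lower without tumour replicate 2. Other list counts of 3 or fewer moved by 1 or 2 calls with single libraries left out. With only the 8 libraries of Xist above 1 CPM, 21 of the 39 called genes named for tumours against normal adults lost their calls.

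**Figure D4:**
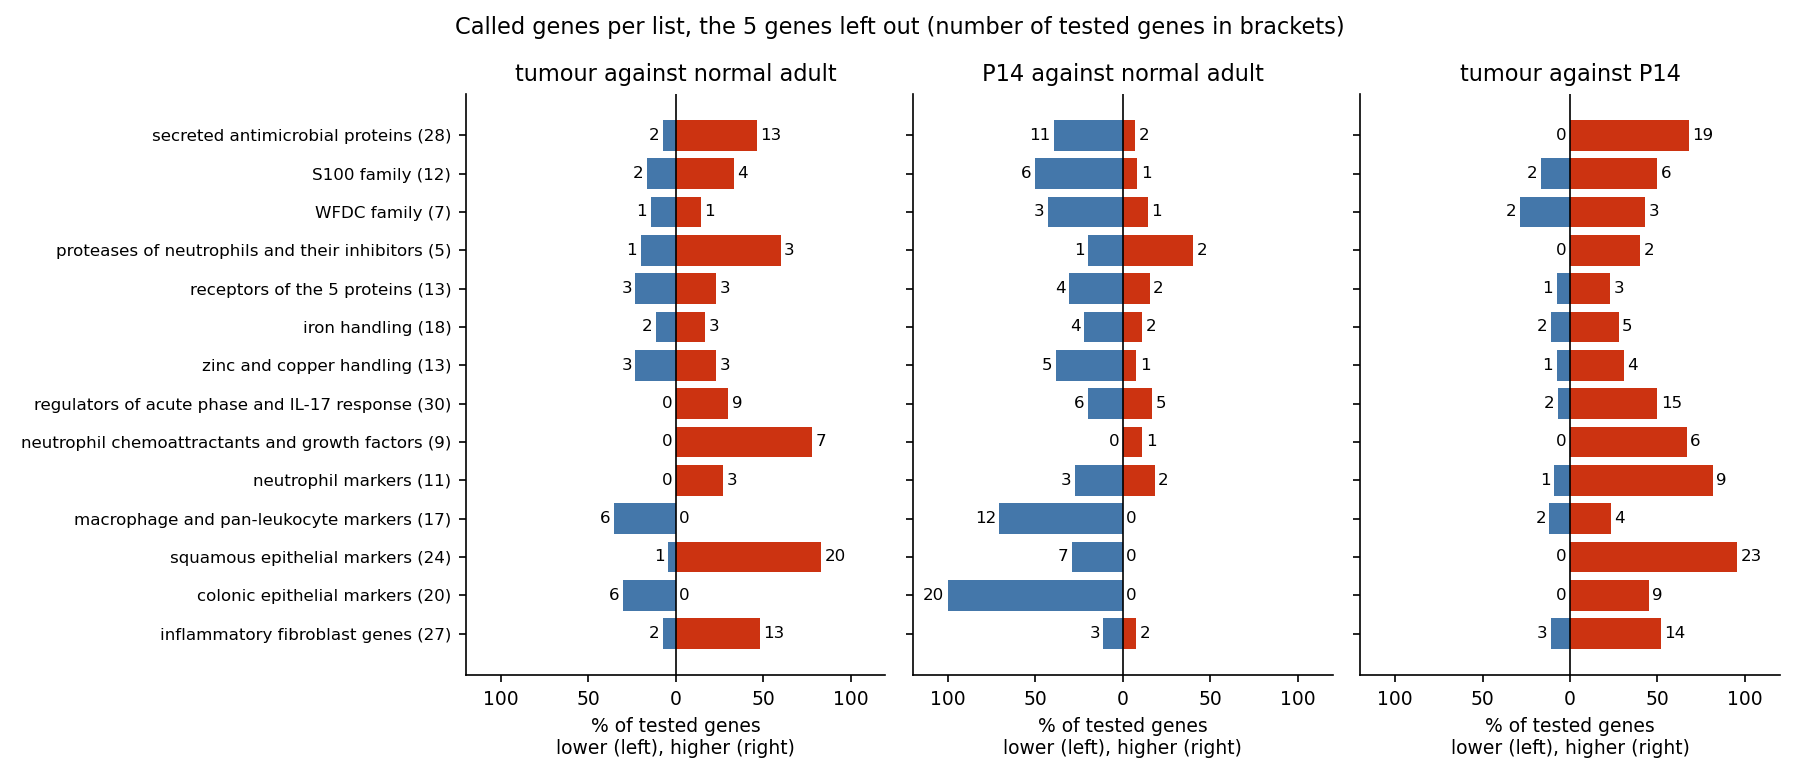
Share of the tested genes of each list called higher (right, red) or lower (left, blue) in the 3 comparisons, with the number of calls beside each bar and the 5 antimicrobial genes left out. Of the 28 other secreted antimicrobial proteins 13 were called higher and 2 lower in tumours against normal adults, but 2 higher and 11 lower at P14.

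At P14 against normal adults, 30.9% of tested genes were called, 14.9% higher and 16.0% lower. Of the 28 other secreted antimicrobial proteins, 11 were called lower and 2 higher, with a median log2 difference of -1.75, against -0.0019 over all tested genes. The count of 11 fell to 6 without normal adult replicate 2, to 5 without normal adult replicate 3 or P14 replicate 2 or 3, and to 4 without P14 replicate 1. Lpo, the lactoperoxidase of mucosal secretions, was at 0.192, 0.371, 0.173 and 0.223 CPM at P14 and 1.33 to 3.76 CPM in normal adults, and fell by 3.37 ± 0.65 (SE, edgeR adjusted p = 0.00256). The interferon-induced chemokine Cxcl9 rose by 3.03 ± 0.68 (adjusted p = 0.00556), or 2.05 without P14 replicate 3. Of the 12 other S100 genes, 6 were called lower and 1 higher. S100a6 was at 453, 417, 307 and 436 CPM at P14 and 866 to 1440 CPM in normal adults, and fell by 1.51 ± 0.22 (adjusted p = 0.000737). S100a14 fell by 2.39 ± 0.46 (adjusted p = 0.00251) and S100a1 by 1.18 ± 0.23 (adjusted p = 0.00254). S100b, a gene of glial cells, rose by 1.49 ± 0.41 (adjusted p = 0.0151), a call that ended without P14 replicate 1 or 2.

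The counts of this paragraph stand beside 14.9% of all tested genes called higher and 16.0% lower at P14. Of the 7 WFDC genes, 3 were called lower and 1 higher. The higher call was lost without any of normal adult replicates 2 to 4 or P14 replicates 1 to 3. The lower ones included Wfdc2 at -2.96 ± 0.58 (SE, edgeR adjusted p = 0.00281) and Wfdc17 at -3.58 ± 0.62 (adjusted p = 0.00154). These were -3.79 and -4.22 without P14 replicate 4. Of the 13 receptors, 2 were called higher and 4 lower. Slc22a17 rose by 1.34 ± 0.22 (adjusted p = 0.00109) and Ager by 1.57 ± 0.26 (adjusted p = 0.00114). Cd14, a coreceptor of Tlr4, to which calprotectin binds, fell by 2.12 ± 0.42 (adjusted p = 0.00284), and the log2 difference was -2.76 without P14 replicate 4. Of the 18 iron genes, 2 were called higher and 4 lower, the lower count being 2 without normal adult replicate 1, 2 or 3 or P14 replicate 1 or 2, and 7 in a fit of these 2 groups alone. Of the 13 zinc and copper genes, 1 was called higher and 5 lower. Fth1, the heavy chain of the iron store ferritin, fell by 1.29 ± 0.21 (adjusted p = 0.00109), and Mt1, a metallothionein, by 0.86 ± 0.14 (adjusted p = 0.0012). Of the 5 protease inhibitors, 2 were called higher and 1 lower. Serpinb1a, an inhibitor of neutrophil proteases, fell by 1.97 ± 0.23 (adjusted p = 0.000241), while Serpina3g rose by 2.71 ± 0.45 (adjusted p = 0.00132). Of the 30 regulators, 5 were called higher and 6 lower, with 3 higher without normal adult replicate 2, 3 or 4 or P14 replicate 2 or 3. Il1a was among the lower ones and fell by 1.52 ± 0.41 (adjusted p = 0.0151).

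Most tested markers of colonic epithelium, mucosal glands and macrophages fell at P14. Of 20 colonic epithelial markers, 20 were called lower, with Epcam at 87.9, 77.2, 39.0 and 291 CPM at P14 and 704 to 1589 CPM in normal adults. Epcam fell by 3.18 ± 0.60 (SE, edgeR adjusted p = 0.00228), and the log2 difference was -4.04 without P14 replicate 4. The 17 macrophage and pan-leukocyte markers had 12 calls lower and none higher, and their summed level was 30.7 to 54.9 CPM at P14 against 184 to 248 CPM in normal adults. Ptprc fell by 2.86 ± 0.80 (adjusted p = 0.0169), a call that ended without P14 replicate 1 or 2. The 11 tested neutrophil markers did not move one way, with 3 called lower, 2 higher and 6 not. Ly6g fell by 2.47 ± 0.50 (adjusted p = 0.00321) and Cd177 fell by 4.15 ± 0.65 (adjusted p = 0.000924), with a log2 difference of -4.95 without P14 replicate 4. Clec4d, a C-type lectin of myeloid cells, was the third at -3.57 ± 1.22 (adjusted p = 0.0414), a call that leaving out any 1 of the 8 libraries ended. Mmp9 rose by 1.78 ± 0.40 (adjusted p = 0.00553). Mpo, or myeloperoxidase, was called higher at 0.94 ± 0.34 (adjusted p = 0.0493), a call that held only without normal adult replicate 1 or P14 replicate 4 when 1 library was left out. With no filter on low counts 15 markers were tested, and 3 were called lower and 1 higher. Markers of mucosal glands had 8 of 10 called lower and none higher. Of 24 squamous epithelial markers, 7 were called lower, none higher and 17 not, and 5 to 16 were called lower with 1 library left out. The part of these cells in the P14 levels of the 5 genes and of the related lists was not tested. With only the 8 libraries of Xist above 1 CPM, all 23 named calls at P14 were lost; 23 genes in all were then called, and 3413 had an unadjusted p under 0.05.

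In tumours against P14, 37.0% of tested genes were called, 19.7% higher and 17.3% lower. Of the 28 other antimicrobial proteins, 19 were called higher and none lower, with a median log2 difference of 2.63 against 0.05 over all tested genes. Hp rose by 9.06 ± 0.78 (SE, edgeR adjusted p = 1.32e-05), or 8.33 without tumour replicate 2, Saa3 by 7.48 ± 0.62 (adjusted p = 1.27e-05) and Lpo by 3.70 ± 0.66 (adjusted p = 0.00108). Of the 12 S100 genes, 6 were called higher and 2 lower, with S100a14 at 4.05 ± 0.49 (adjusted p = 0.000102) and S100a4 at 3.30 ± 0.58 (adjusted p = 0.00106). Wfdc18 rose by 5.93 ± 0.74 (adjusted p = 0.000121). The lipocalin-2 receptor gene Slc22a17 fell by 1.33 ± 0.22 (adjusted p = 0.000632) and ferroportin Slc40a1 by 2.38 ± 0.30 (adjusted p = 0.00012), while Fth1 rose by 1.63 ± 0.21 (adjusted p = 0.000146). Of the 7 WFDC genes 3 were called higher and 2 lower, of the 13 receptors 3 and 1, of the 18 iron genes 5 and 2, and of the 30 regulators 15 and 2. Epithelial markers moved with these lists: 23 of 24 squamous markers were called higher, with a median of 5.07, and 6 of 10 markers of mucosal glands. Of 20 colonic epithelial markers 9 were called higher, but 5 without P14 replicate 1 or 2, 4 without tumour replicate 3 and 17 without P14 replicate 4. None of these 3 lists had a gene called lower. The part of such cells was not tested. Of 11 neutrophil markers, 9 were called higher and 1 lower, and 7 to 10 higher with 1 library left out. Ly6g rose by 2.69 ± 0.50 (adjusted p = 0.00151) and Cd177 by 4.50 ± 0.66 (adjusted p = 0.00032), or 5.30 without P14 replicate 4. Csf3r rose by 5.32 ± 1.18 (adjusted p = 0.00419), or 2.91 without tumour replicate 2 and 6.32 without P14 replicate 4. Ptprc rose by 2.18 ± 0.78 (adjusted p = 0.0441) and was at 0.26 and not called without tumour replicate 2. Leaving out P14 replicate 1, 2 or 3 ended that call too.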

How the data were processed

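The 12 libraries were mapped to 3 groups of 4 mice by their labels. Per the labels, the libraries were poly-A selected and strand-specific, with single-end reads of 75 bases. The deposited values are unnormalized gene counts in 1 table, and gene IDs were named through GENCODE M21 on GRCm38. STAR 2.4.2a, edgeR 3.28.0 and GRCm38 were used per the submitters' processing notes, with no role stated. Which counting tool, annotation and strand setting were used is not given in the sources, so overlapping, antisense and near-identical genes are uncertain.

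Counts were fitted in R 4.3.3 with edgeR 4.0.16 (quasi-likelihood test, TMM factors, all 12 libraries in 1 fit). The filterByExpr filter, with a minimum count of 10 and minimum total of 15, kept 18727 of 19049 genes. CPM values use TMM-scaled totals. CPM per kilobase uses the union of a gene's GENCODE exons. Errors are the SD over 4 libraries or an SE worked back from the test. That SE is the absolute log2 difference divided by the square root of the quasi-likelihood F statistic. The steps were tested on simulated counts. Alternatives were other scalings, no filter, DESeq2 1.42.0, limma 3.58.1 voom, pairs of groups only, a replicate block, libraries with Xist, and each library left out.

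The 5 genes, the 17 lists and the tests were chosen with earlier results of these data known. Genes named with a test came, per list and comparison, from up to 4 called genes with the largest change at a mean of at least 1 CPM, from the defining markers, from any gene of a list of at most 18, and from neighbours within 200 kb. The text names part of these. Title numbers shared between groups are not stated to pair mice. Deviations from group means correlated above 0.1 in 3 of 6 pairs with the same number. These were the pairs with number 2, at r of 0.204, 0.319 and 0.208, and no other pair was above 0.019. The correlations cannot decide whether the numbers pair mice. RefSeq promoters were matched by symbol for 5 of 5 genes.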

Additional observations from a re-analysis of the deposited data

Results flagged for a closer look

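Each group of 4 libraries was examined for a library far from the other 3, for the 5 genes and for the summed levels of 4 marker lists, 27 sets in all. Chance flags about 1 in 20 such sets if their values are normally distributed, which 4 libraries cannot show. The screen used CPM and was not run on log2 levels, where high values stand less far apart. For S100a8 and S100a9, whose levels were known when the genes were chosen, the screen is a description and no test, and both concern 1 library. S100a8 in tumour replicate 2, at 277 CPM, stood apart from the other tumours at 4.71 to 29.7 CPM, with a gap of 0.908 of the group's range, above Dixon's 95% critical value for 4 samples. S100a9 in the same library, at 531 CPM, stood apart from the others at 15.7 to 44.9 CPM, with a gap of 0.943 of the range. The summed colonic epithelial markers in P14 replicate 4, at 3614 CPM, stood apart from the other P14 libraries at 551 to 845 CPM, with a gap of 0.904 of the range. The Ltf levels of the tumours, which fell into 2 low and 2 high libraries, were not flagged, since the gap lay in the middle of the group.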

How the results depend on the processing

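From the RefSeq start, an alternative chosen after seeing the data, 1 neighbour of Slpi was called lower at P14 and 1 higher in tumours against P14, in place of 2 each. The sign of all 15 differences of the 5 genes was kept under every alternative that gave a value, and no gene named with a test changed sign. The fit of only the 2 groups compared gave values for 12 of the 15. At P14 against normal adults it had none for Ltf, S100a8 and S100a9, whose P14 signs rest on few reads. The number of genes called in tumours against normal adults was 818 with the replicate block and 644 with only the libraries of Xist above 1 CPM, against 3545, and 2303 to 4168 with 1 library left out, lowest without normal adult replicate 3. At P14 against normal adults it was 2953 with the block and 23 with only those libraries, against 5789. In tumours against P14 it was 3740 with the block and 1999 with only those libraries, against 6930. The cause of these drops was not tested; the Xist setting leaves 2 normal adult and 2 P14 libraries. With the replicate block, which pairs mice by number only, the log2 difference was 5.03 for Lcn2 in tumours against normal adults, 7.55 for Lcn2 in tumours against P14, -3.16 for S100a9 at P14 and -0.92 for Slpi at P14, and 15, 5 and 1 of the 39, 23 and 16 called named genes lost their calls in tumours against normal adults, P14 against normal adults and tumours against P14. At P14 limma voom gave -2.04 for Ltf and -1.56 for S100a9. With only the Xist libraries the P14 values were -0.82 for Ltf, -0.50 for S100a9 and -0.12 for Slpi. With 1 library left out, the P14 values ran from -3.10 to -1.20 for Ltf, from -0.61 to -0.24 for S100a8 and from -2.63 to -1.45 for S100a9. S100a9 ran from 6.31 to 9.61 in tumours against normal adults and from 8.51 to 11.44 in tumours against P14. Depth limits the levels of Ltf, S100a8 and S100a9 outside tumours, where no library held more than 14, 10 and 21 of their reads.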
